A study of Mus musculus with 6 samples.

Results

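The integrated stress response genes described here are 9 genes of the liver transcriptome: Atf4, Atf3, Ddit3, Trib3, Chac1, Sesn2, Eif4ebp1, Ppp1r15a and Atf5. They were read from all probe sets that the platform annotation pairs with 1 of these genes alone, which are 16 probe sets of the 45037 tested, and 9 of the 18193 genes that had such a probe set. Total liver RNA was measured on Affymetrix expression arrays in 3 mice of B6.C3H-6T and 3 mice of C57BL/6J, 1 mouse per array. All were chow-fed females of 8 weeks, with no pooling and no treatment named. B6.C3H-6T is congenic on C57BL/6J, with C3H DNA on chromosome 6, and the series describes it as having low serum IGF-1. C57BL/6J is the background strain and carries no such segment. The limits of the segment are not given in the sources used here. None of the 9 genes lies on chromosome 6: Atf3 is on chromosome 1, Trib3 and Chac1 on 2, Sesn2 on 4, Ppp1r15a and Atf5 on 7, Eif4ebp1 on 8, Ddit3 on 10 and Atf4 on 15.

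The integrated stress response is the shared reaction of a cell to a shortage of amino acids, misfolded protein in the endoplasmic reticulum, lack of haem or double-stranded RNA. Each signal switches on a kinase that phosphorylates eIF2 alpha, which lowers protein synthesis in general but favours translation of a few mRNAs, ATF4 and ATF5 among them. ATF4 then turns on genes for amino acid supply and stress adaptation, and also genes that end the response. Much of the control of ATF4 is exerted on translation and protein stability, which an array of mRNA does not read. In liver the pathway is known for its part in the reaction to low dietary protein and to endoplasmic reticulum stress.

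The promoters of the members are shown because ATF4 and its partners act through short elements there. Of the 9 genes, 8 had a window in the RefSeq promoter table (GRCm38.p6), which spans 250 bases before to 50 bases after the start of the transcript, and Atf5 had 2 such windows. Both strands were searched for TGATGNAAN, the C/EBP-ATF response element, and for TGACGTCA, the ATF and cAMP response element, which do not overlap each other in these windows. The first was found in 3 of the 8 genes, Atf3, Trib3 and Chac1, and in 3.95% of all 32851 windows of the table. The second was found in Ppp1r15a alone and in 1.79% of all windows. In Trib3 the match began 14 bases into the transcript. The 250 bases upstream of the start are printed for the other 3, 5′ to 3′ on the gene's strand, with the match in capitals. Chac1 lies on the plus strand at chr2:119350992-119351241, Atf3 on the minus strand at chr1:191183334-191183583 and Ppp1r15a on the minus strand at chr7:45526269-45526518.
Chac1: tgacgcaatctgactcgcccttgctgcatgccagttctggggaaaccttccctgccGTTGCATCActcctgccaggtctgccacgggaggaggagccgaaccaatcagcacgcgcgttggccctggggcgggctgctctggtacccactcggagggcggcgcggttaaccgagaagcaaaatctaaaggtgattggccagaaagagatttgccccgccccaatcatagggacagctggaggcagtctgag
Atf3: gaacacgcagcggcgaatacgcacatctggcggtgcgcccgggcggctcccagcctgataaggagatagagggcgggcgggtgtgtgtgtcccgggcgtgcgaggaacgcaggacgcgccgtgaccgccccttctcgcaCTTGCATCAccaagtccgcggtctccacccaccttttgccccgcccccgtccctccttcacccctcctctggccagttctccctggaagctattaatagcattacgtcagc
Ppp1r15a: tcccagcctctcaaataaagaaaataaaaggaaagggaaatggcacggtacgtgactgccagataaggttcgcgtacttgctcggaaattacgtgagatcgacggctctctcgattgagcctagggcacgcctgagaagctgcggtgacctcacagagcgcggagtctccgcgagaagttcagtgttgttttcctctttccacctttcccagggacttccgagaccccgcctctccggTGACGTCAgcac
The matches in Chac1 and Atf3 read as the reverse complement of the element and begin at positions -194 and -111 from the start. That in Ppp1r15a is a palindrome and begins at position -12. A match describes these letters and does not show binding.

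The first question was whether these genes differ between the livers of the congenic strain and those of its background strain. None of the 16 probe sets passed at an adjusted p under 0.05 (limma on all probe sets with Benjamini-Hochberg adjustment, B6.C3H-6T minus C57BL/6J), where 0.0577% of all probe sets did. At an unadjusted p under 0.05 there was 1, that of Chac1 (6.25% of the 16), against 10.6% of all probe sets. The strains did not overlap at the same 1 probe set, against 16.0% of all probe sets. Each share rests on 1 probe set, so no difference from the background is read from it. Of the 16 probe sets, 10 were higher in B6.C3H-6T and 6 lower, with a median log2 difference of 0.06 beside 0.02 over all probe sets. Taken by gene, with the probe set of highest mean, 6 genes were higher and 3 lower. None of the 9 passed, where 0.0715% of genes did, and 1 (11.1%) had an unadjusted p under 0.05, against 12.1% of genes.

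The size of the differences was small beside Chac1. The other 15 probe sets all differed by less than 0.2 on the log2 scale. Their 95% intervals all contained 0, and none reached below a fold of 0.734 or above a fold of 1.40. Each 95% interval holds for its own probe set alone, and together they do not show that the strains are alike. With 3 mice per strain, an exact permutation test of a single probe set cannot give a p below 0.1.

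**Figure D1:**
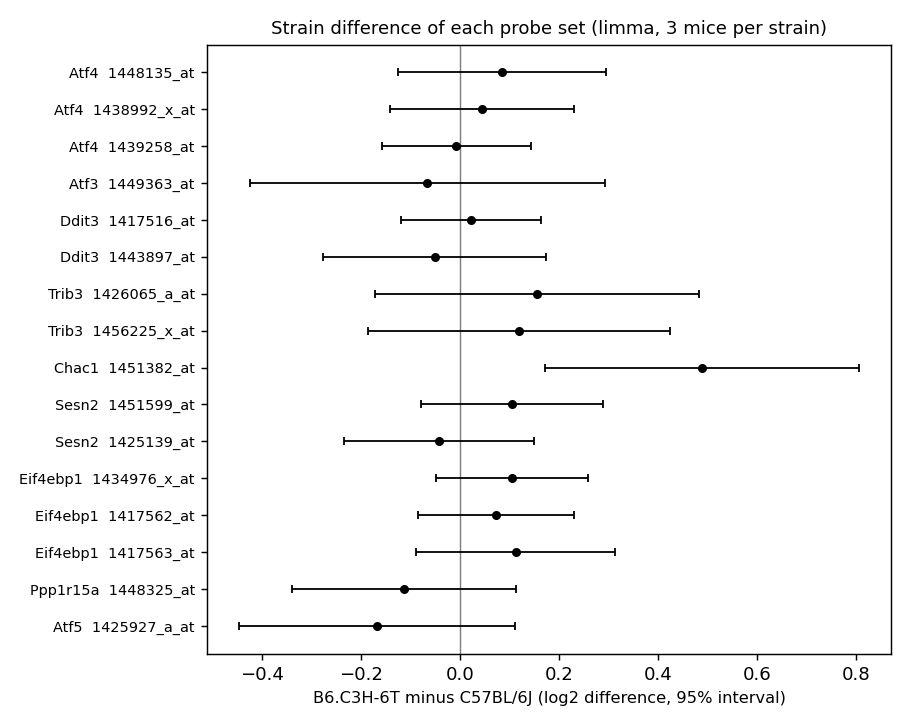
Log2 difference between B6.C3H-6T and C57BL/6J for each of the 16 probe sets (points) with 95% intervals from limma, 3 mice per strain. The interval of Chac1 lies above 0, from 0.17 to 0.81, and those of the other 15 probe sets contain 0.

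Atf4 encodes the transcription factor at the centre of the response. Its brightest probe set (1448135_at) read 10.68, 10.96 and 10.62 in B6.C3H-6T replicates 1 to 3, against 10.68, 10.71 and 10.62 in C57BL/6J replicates 1 to 3. B6.C3H-6T replicate 2 was the high sample, and the other 5 arrays lay within the range of the background strain or at its edge. The difference was 0.09 ± 0.09 (log2 ± SE, 3 mice per strain; limma adjusted p = 0.784), and without that array it was -0.02. The probe set 1438992_x_at differed by 0.04 ± 0.08 and turned to -0.03 without the same array. The dim probe set 1439258_at differed by -0.01 ± 0.07. Its mean level stood at the 22.2 percentile of all probe sets.

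Atf5, a close relative of Atf4 that is also controlled through translation and is strongly expressed in liver, had 1 probe set. It read 11.18, 11.45 and 11.57 in B6.C3H-6T, against 11.34, 11.73 and 11.62 in C57BL/6J. The strains overlapped, and the difference of -0.17 ± 0.12 was the lowest of the 16 (limma adjusted p = 0.668). Without C57BL/6J replicate 1, the lowest array of its strain, it was -0.28 (limma unadjusted p = 0.044, adjusted p = 0.537). Without B6.C3H-6T replicate 1, the lowest of the congenic strain, it was -0.06 (limma adjusted p = 0.935).

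Ddit3 encodes CHOP, the factor that ties a long-lasting response to cell death. Its probe set 1417516_at was the steadiest of the 16 and read 7.42, 7.43 and 7.44 in B6.C3H-6T, against 7.47, 7.41 and 7.35 in C57BL/6J. All 3 values of B6.C3H-6T lay inside the range of C57BL/6J. The difference was 0.02 ± 0.06 (95% interval -0.12 to 0.16, limma adjusted p = 0.927). The second, dimmer probe set (1443897_at) differed by -0.05 ± 0.10, so that neither gave a difference beyond its error and they had opposite signs.

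Atf3, a repressor and activator of the same protein family that many stress signals induce, read 5.74, 5.64 and 5.62 in B6.C3H-6T, against 6.13, 5.70 and 5.38 in C57BL/6J. The 3 congenic livers lay close together, inside the wide range of the background strain. The SD was 0.06 in B6.C3H-6T and 0.38 in C57BL/6J (n = 3 each), and the difference was -0.07 ± 0.16 (limma adjusted p = 0.916). It was 0.13 without C57BL/6J replicate 1. Of 15 genes that respond at once to stimulation or to handling of tissue, 9 had the same order of the C57BL/6J arrays, replicate 1 highest and replicate 3 lowest, and 2, Gadd45b and Myc, the opposite one. This order was looked for after the values were seen, and its share over all genes was not taken. Egr1, an immediate early transcription factor gene, read 8.17, 8.15 and 8.10 in B6.C3H-6T, against 9.88, 9.05 and 8.73 in C57BL/6J. Jun, which encodes a partner of ATF3, read 7.49, 7.75 and 7.35 in B6.C3H-6T, against 8.95, 8.10 and 7.63 in C57BL/6J. Both are among the 9. Whether time to dissection or handling played a part was not tested.

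**Figure D2:**
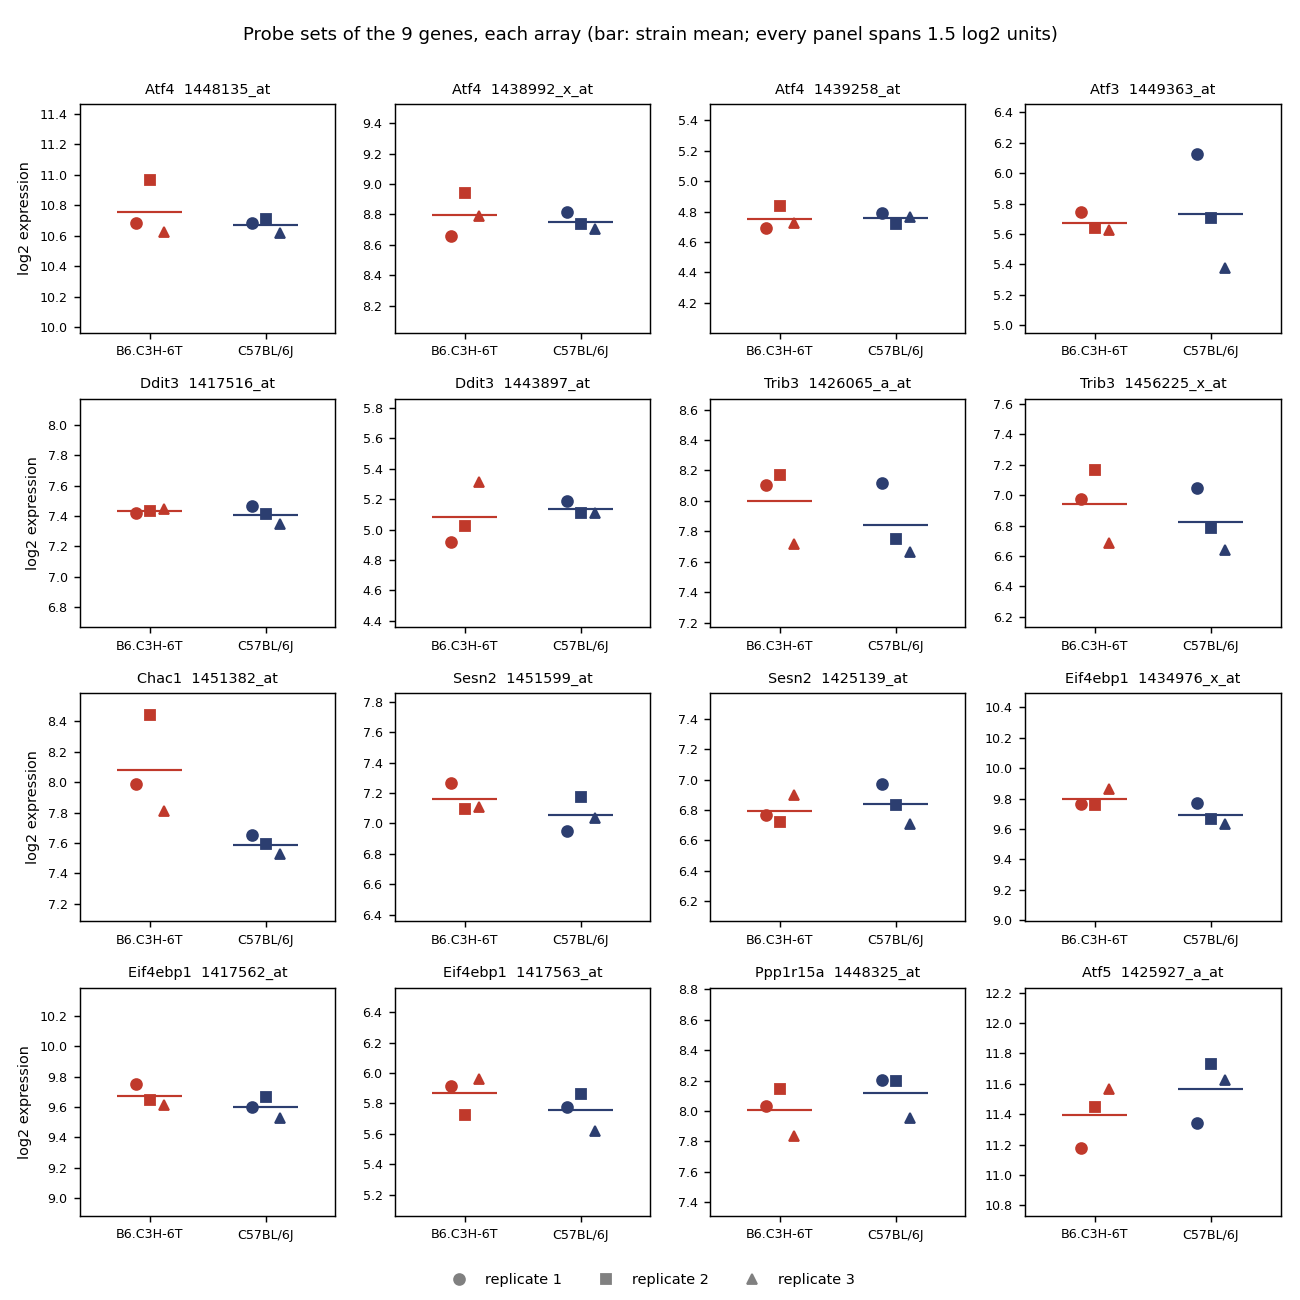
Log2 expression of the 16 probe sets on each array, B6.C3H-6T (red, left) and C57BL/6J (blue, right), with the strain mean as a bar and symbols for replicates, which are not paired. The 2 strains overlap in every panel but that of Chac1.

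Chac1 encodes an enzyme that breaks down glutathione and is among the ATF4 targets most used to report the response. Its only probe set (1451382_at) read 7.99, 8.44 and 7.81 in B6.C3H-6T, against 7.65, 7.59 and 7.53 in C57BL/6J. All 3 congenic livers were above all 3 of the background strain, and B6.C3H-6T replicate 2 was the highest. The difference was 0.49 ± 0.14 (1.40-fold, 95% interval 1.13 to 1.75), with an unadjusted p of 0.00691 and an adjusted p of 0.327 over all probe sets in limma. Adjusted over genes the p was 0.28, so Chac1 did not pass in either family. The SD was 0.33 in B6.C3H-6T and 0.06 in C57BL/6J (n = 3 each). With unmoderated variances the unadjusted p of Chac1 was not under 0.05. The difference was 0.31 without B6.C3H-6T replicate 2 and lay between 0.46 and 0.62 without any other single array. The exact permutation p was 0.1, the smallest possible here.

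B6.C3H-6T replicate 2 was also the array farthest out on the first principal component of all probe sets, at 27.3, where the other arrays of its strain stood at 11.8 and 2.29 and those of C57BL/6J between -16.7 and -10.3. Array medians ran from 6.07 to 6.11, and correlations between arrays over all probe sets from 0.993 to 0.997. Hepatocyte markers were present at high level on every array, with Alb, the albumin gene, between 14.50 and 14.56. The 7 Kupffer and myeloid markers, Clec4f on chromosome 6 among them, were all lower in B6.C3H-6T. None passed the adjusted threshold, and 6 had an unadjusted p under 0.05 (limma), against 12.1% of all genes. The mean log2 level of the 7 markers ran from 9.20 to 9.42 in B6.C3H-6T and from 9.51 to 9.80 in C57BL/6J. B6.C3H-6T replicate 2, the highest array for Chac1, was the lowest for 6 of the 7. Fewer cells of a type and less RNA per cell cannot be told apart in whole liver, and the part of these cells in the values of the members was not tested.

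Trib3 encodes a pseudokinase that restrains ATF4 and AKT signalling and is itself induced by ATF4. Its probe set 1426065_a_at read 8.10, 8.17 and 7.72 in B6.C3H-6T, against 8.12, 7.75 and 7.67 in C57BL/6J. The strains overlapped, with B6.C3H-6T replicate 3 among the low arrays and C57BL/6J replicate 1 among the high ones. The difference was 0.16 ± 0.14 (limma adjusted p = 0.741). The second probe set, 1456225_x_at, placed the arrays of each strain in the same order and differed by 0.12 ± 0.13. Without 1 array the differences ran from 0.07 (without C57BL/6J replicate 3) to 0.30 (without B6.C3H-6T replicate 3) and from 0.01 (without B6.C3H-6T replicate 2) to 0.25 (without B6.C3H-6T replicate 3). Replicate 3 of B6.C3H-6T was thus the lowest of its strain for both Chac1 and Trib3, and replicate 2 the highest.

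Ppp1r15a encodes GADD34, the subunit that directs a phosphatase to eIF2 alpha and so ends the response. It read 8.03, 8.14 and 7.84 in B6.C3H-6T, against 8.20, 8.19 and 7.95 in C57BL/6J. The strains overlapped, and the difference was -0.11 ± 0.10 (95% interval -0.34 to 0.11, limma adjusted p = 0.73). It ran from -0.20 without C57BL/6J replicate 3 to -0.03 without B6.C3H-6T replicate 3.

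Sesn2 and Eif4ebp1 link the response to growth control by mTORC1. Sesn2 encodes a leucine sensor that holds mTORC1 back. Its probe set 1451599_at read 7.27, 7.10 and 7.11 in B6.C3H-6T, against 6.95, 7.17 and 7.03 in C57BL/6J. The strains overlapped, and the difference was 0.11 ± 0.08 (limma adjusted p = 0.682). It ran from 0.05 without B6.C3H-6T replicate 1 to 0.17 without C57BL/6J replicate 2. The other probe set, 1425139_at, had the opposite sign at -0.04 ± 0.08, so the gene shows no agreed direction. Eif4ebp1 encodes 4E-BP1, which blocks cap-dependent translation when mTORC1 is inactive. Its brightest probe set (1434976_x_at) read 9.77, 9.76 and 9.86 in B6.C3H-6T, against 9.77, 9.66 and 9.63 in C57BL/6J. Only C57BL/6J replicate 1 reached into the range of the congenic strain. The 3 probe sets of this gene differed by 0.11 ± 0.07, 0.07 ± 0.07 and 0.11 ± 0.09, with adjusted p from 0.616 to 0.747 in limma, and kept that sign without each array in turn, with values from 0.03 to 0.18.

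Chac1 had the widest range over the 6 arrays among the members, 0.91. The 3 genes whose pattern was most like it were Tex9, Mettl1 and Slc43a1, with Pearson correlations over the 6 arrays of 0.995, 0.990 and 0.990. The points share their 6 arrays and the split between strains, so the correlations are a description with no p. Slc43a1, which encodes a transporter of large neutral amino acids, read 7.44, 7.74 and 7.33 in B6.C3H-6T, against 7.13, 7.06 and 7.05 in C57BL/6J. Mettl1, which encodes a tRNA methyltransferase, read 7.61, 7.81 and 7.48 in B6.C3H-6T, against 7.42, 7.34 and 7.38 in C57BL/6J. Tex9 read 4.83, 5.01 and 4.73 in B6.C3H-6T, against 4.63, 4.64 and 4.61 in C57BL/6J, at a dim probe set. In all 3, chosen for likeness to Chac1, B6.C3H-6T replicate 2 was the highest array and the strains did not overlap, which largely follows from that choice. Their differences of 0.42 ± 0.10, 0.25 ± 0.09 and 0.23 ± 0.08 did not pass over genes (limma adjusted p = 0.223, 0.335 and 0.335).

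**Figure D3:**
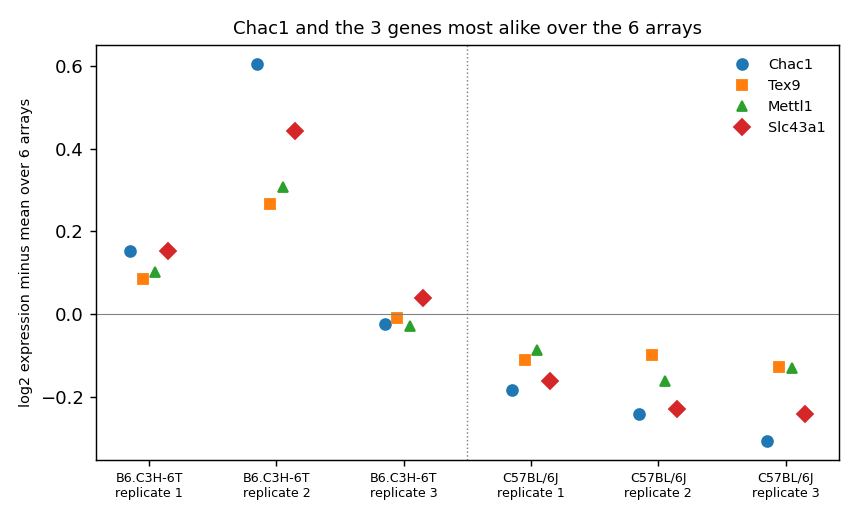
Log2 expression of Chac1, Tex9, Mettl1 and Slc43a1 on each array, less the gene's own mean over the 6 arrays. B6.C3H-6T arrays stand left of the dotted line and C57BL/6J arrays right of it, and B6.C3H-6T replicate 2 is the highest array for all 4 genes. Tex9, Mettl1 and Slc43a1 were chosen for their correlation with Chac1 over these arrays.

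The second question was whether the rest of the pathway and its neighbouring genes differed. On 12 lists of pathway and neighbouring genes, 120 further genes were measured, with 1 probe set per gene. None passed over all genes in limma, while 24 (20%) had an unadjusted p under 0.05, 13 higher and 11 lower, against 12.1% of all genes. The strains did not overlap at 19 of the 120, against 17.8% of all genes. Their median log2 difference was 0.01, beside 0.02 over all genes. The share of all genes that were higher was not taken, so counts of higher and lower genes on a list are not read as a result. The lists were chosen with earlier results of these data known, so the 20% beside 12.1% is not read as a result.

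Upstream of ATF4, none of the 8 genes for eIF2 alpha kinases and their activators had an unadjusted p under 0.05, and 5 were lower, with a median of -0.06. Eif2ak4, the amino acid sensing kinase GCN2, differed by -0.18 ± 0.10 and Eif2ak2, the double-stranded RNA sensor PKR, by -0.14 ± 0.08. Without 1 array these shrank as far as -0.08 (without C57BL/6J replicate 1) and -0.08 (without C57BL/6J replicate 2). Dele1, which relays mitochondrial stress to the kinase HRI, was the 1 gene of the list without overlap between strains, at 0.10 ± 0.07, and its other probe set differed by 0.02. Of 11 genes for eIF2, its exchange factor eIF2B and the phosphatase side, 1 had an unadjusted p under 0.05, the eIF2B subunit gene Eif2b4 (-0.25 ± 0.09). The median of that list was -0.02. Among 14 partners and relatives of ATF4, 1 was higher and 2 lower at an unadjusted p under 0.05, with a median of -0.03. Cebpb, a dimer partner of ATF4, differed by 0.28 ± 0.11, and Creb3l3, a liver factor of the fasting response, by -0.38 ± 0.12 (limma adjusted p = 0.308). Without B6.C3H-6T replicate 2 these were 0.16 and -0.23.

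Genes that ATF4 induces for amino acid supply showed a positive difference for 13 of 18, and the median was 0.07. At an unadjusted p under 0.05, 3 were higher and 1 lower. Cth, which encodes cystathionine gamma-lyase of cysteine synthesis, read 12.60, 12.79 and 12.50 in B6.C3H-6T, against 12.25, 12.04 and 12.21 in C57BL/6J. The strains did not overlap, and the difference was 0.46 ± 0.09 (1.38-fold, limma adjusted p = 0.189). Phgdh, the first enzyme of serine synthesis, differed by 0.28 ± 0.07 at its brightest probe set, while its 3 other probe sets differed by 0.02 to 0.12. Slc38a2, a neutral amino acid transporter, differed by 0.22 ± 0.08, and its 2 other probe sets by 0.18 and 0.01. The glycine transporter gene Slc6a9 went the other way at -0.31 ± 0.06 (limma adjusted p = 0.189). Asns, the asparagine synthetase gene that is a standard readout of ATF4, differed by 0.07 ± 0.07, with the strains overlapping, and was chosen for mention after its value was seen. Asns lies on chromosome 6, where B6.C3H-6T carries C3H DNA, and whether it falls within that segment is not given. Genes of tRNA charging showed a positive difference for 10 of 13, and the median was 0.05, while the single gene at an unadjusted p under 0.05 was lower (Cars, -0.30 ± 0.12). Averaged over all its probe sets, Cars differed by -0.03.

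Among 11 secreted and other outputs of ATF4, 3 were higher and 2 lower at an unadjusted p under 0.05, and the median was -0.07. Their differences ran from -0.72 to 0.87. Ddit4, which encodes the mTORC1 inhibitor REDD1 and responds to glucocorticoids as well as to ATF4, read 7.90, 8.48 and 8.23 in B6.C3H-6T, against 7.50, 7.16 and 7.33 in C57BL/6J. The strains did not overlap, and the difference of 0.87 ± 0.14 (1.83-fold) had a limma adjusted p of 0.119. With B6.C3H-6T replicate 1 left out it was 1.02 and passed (limma adjusted p = 0.0367), while without any other single array it did not pass, with a lowest difference of 0.73 and adjusted p up to 0.418. Ndrg1, a stress gene that hypoxia also induces, read 9.37, 8.996 and 9.12 in B6.C3H-6T, against 9.73, 9.96 and 9.97 in C57BL/6J. Its difference was -0.72 ± 0.11 (0.606-fold, limma adjusted p = 0.0802), and its 4 other probe sets differed by -0.77 to -0.51. With B6.C3H-6T replicate 1 left out it was -0.83 and passed (limma adjusted p = 0.0367). Leaving out any other single array gave no pass, with a smallest difference of -0.64 and limma adjusted p up to 0.396. Fgf21, the hormone that liver secretes under amino acid shortage and PPAR alpha activation, differed by -0.34 ± 0.11 and Stc2 by 0.23 ± 0.07. The 2 other probe sets of Stc2 differed by 0.21 and -0.05.

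Downstream of CHOP, 1 of 5 genes was higher and 1 lower at an unadjusted p under 0.05, the survival gene Bcl2 (0.33 ± 0.11) and the cell death gene Bcl2l11 (-0.24 ± 0.08), with a median of -0.02. Averaged over all probe sets of each gene these were 0.10 and -0.07. Of 6 paralogues of the members, Sesn3 differed by 0.27 ± 0.07 (limma adjusted p = 0.263) and Chac2, which also acts on glutathione, by 0.20 ± 0.10 (0.13 to 0.32 without 1 array, the ends being without B6.C3H-6T replicates 3 and 1), and the median was 0.02. In the endoplasmic reticulum stress list 7 of 9 genes were higher, with a median of 0.02 beside 0.02 over all genes. Herpud1, of protein degradation there, was the 1 gene at an unadjusted p under 0.05 (0.29 ± 0.12), and Hspa5, the chaperone BiP, differed by 0.15 ± 0.11. Without C57BL/6J replicate 3 these were 0.18 and 0.05. The 5 mitochondrial stress genes had a median of -0.02, with 1 at an unadjusted p under 0.05, the chaperonin gene Hspe1 (0.18 ± 0.07, and 0.11 with the _x_at, _s_at and _a_at probe sets left out). Of 7 genes of mTORC1 and cap binding, 1 had an unadjusted p under 0.05, Mtor (-0.35 ± 0.11), whose 2 other probe sets differed by -0.02 and 0.01, and the list's median was -0.01.

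Immediate early and handling genes went both ways: 2 of 15 were higher and 3 lower at an unadjusted p under 0.05, with a median of -0.09. Egr1 differed by -1.08 ± 0.24 (limma adjusted p = 0.213), Jun by -0.70 ± 0.28 and Gadd45b by -0.33 ± 0.11. Without C57BL/6J replicate 1, Egr1 differed by -0.75 and Jun by -0.34. The other Jun probe set differed by -0.18 on all arrays, and the other probe sets of Gadd45b by 0.03 and -0.46. Dusp1, a phosphatase gene of this class, read 9.20, 10.30 and 9.28 in B6.C3H-6T, against 8.83, 8.82 and 8.75 in C57BL/6J. B6.C3H-6T replicate 2 was again the highest array, and the difference of 0.80 ± 0.24 (limma adjusted p = 0.297) was 0.44 without it.

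**Figure D4:**
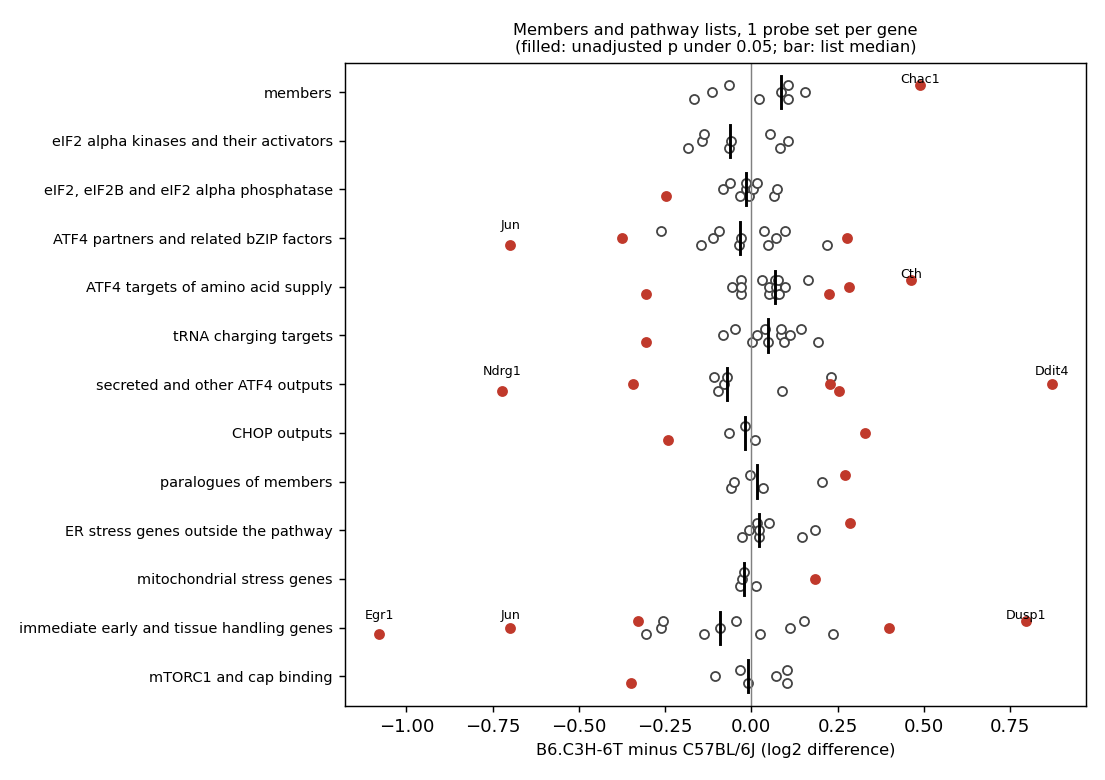
Log2 difference between B6.C3H-6T and C57BL/6J for the 9 members and for the genes of 12 pathway lists, 1 probe set per gene. Filled points have an unadjusted p under 0.05 in limma, none passed after adjustment over all genes, and the bar is the median of each list.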

How the data were processed

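Liver RNA of 6 mice was measured on Affymetrix arrays, 1 array per mouse. The deposited log2 expression values were made by the authors with RMA from affy, per the submitters' processing notes; versions and any later step are not given in the sources used here. Values lay between about 3.14 and 14.56. After 64 control probe sets were left out, all 45037 were fitted together with limma 3.58.1 in R 4.3.3 (lmFit, eBayes, no covariate, no filter on dim probe sets), and p-values were adjusted by Benjamini-Hochberg over all probe sets, or over 18193 genes represented by their probe set of highest mean; the threshold was 0.05. Of the tested probe sets 34945 had 1 gene, 932 several and 9160 none listed; symbols were updated through gene IDs to RefSeq (GRCm38.p6). The number of arrays limits the precision. Labels name mice by pedigree and give no batch; replicate numbers only name a mouse.

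The members and gene lists were chosen with earlier results of these data known. All members and their probe sets are named; of each of the 12 lists up to 4 genes were eligible, called ones first, then those of smallest p, and for the member of widest range the 3 genes most correlated with it. Listed genes to which no single-gene probe set is paired are not analysed here: Eif2s1, Atf1, Pycr1, Gdf15, Eif4ebp3, Rps6kb1 and Eif4g1 of the pathway lists.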

Additional observations from a re-analysis of the deposited data

How the results depend on the processing

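No alternative called any member probe set that it kept. The count stayed at 0 after centring, quantile normalization, restriction to brighter probe sets and removal of _x_at, _s_at and _a_at probe sets. It also stayed at 0 with trend and robust variances, unmoderated variances, array weights, both gene-level fits and without each array. Restriction to brighter probe sets kept 12 of the 16 and left out Atf3. Removal of _x_at, _s_at and _a_at probe sets left out Trib3 and Atf5. The count at an unadjusted p under 0.05 was 0 with unmoderated variances and between 1 and 2 without 1 array, the 2 being Chac1 and Atf5 without C57BL/6J replicate 1. Of 137 member differences under settings that keep all arrays, 135 kept their sign. Only centring, quantile normalization, array weights and the mean of probe sets could change a difference. The other settings leave it as it was, so the 135 is not read as stability. The Ddit3 1417516_at difference was -0.00295 after centring, and Ddit3 was -0.0138 with the mean of its probe sets. Without 1 array, 9 of 96 turned sign, and their log2 differences ran over these ranges: Atf4 1448135_at (-0.0178 to 0.153), Atf4 1438992_x_at (-0.0269 to 0.113), Atf4 1439258_at (-0.0503 to 0.0237), Atf3 1449363_at (-0.245 to 0.131), Ddit3 1417516_at (-0.00784 to 0.0515), Ddit3 1443897_at (-0.164 to 0.0335) and Sesn2 1425139_at (-0.106 to 0.0238). The Chac1 difference ran from 0.31 to 0.62 without 1 array and from 0.46 to 0.52 otherwise. Probe sets without overlap numbered 3 after quantile normalization and from 1 to 4 without 1 array, 4 being without C57BL/6J replicate 1. The share over all probe sets was not taken under these settings. Fewer arrays also separate more readily, so these counts are not read as a result. Listed genes past the threshold numbered 1 with trend and robust variances (Ndrg1, adjusted p = 0.0497) and from 0 to 2 without 1 array, and those at an unadjusted p under 0.05 numbered 10, in place of 24, with unmoderated variances. The shares over all genes under these settings were not taken. Signs turned for Ero1a after quantile normalization (0.0209) and for Hspa9 (0.0741) and Akt1s1 (0.0293) with the mean of probe sets. Without 1 array signs also turned for Bbc3 (-0.167 to 0.0986), Ero1a (-0.072 to 0.0441), Sesn1 (-0.0233 to 0.0699), Lonp1 (-0.0563 to 0.0124), Hspa9 (-0.0537 to 0.0307) and Hspd1 (-0.0624 to 0.0103). The causes were not tested. No paired analysis was possible because the labels give the mice no shared numbers.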

Other observations

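None of the cell type markers measured here passed over all genes in limma. All 6 hepatocyte markers were higher in B6.C3H-6T, with a median log2 difference of 0.05 beside 0.02 over all genes. Alb, Apoa1 and Hnf4a each differed by 0.02, no more than that background, so the shared sign is not read as a result. At an unadjusted p under 0.05 there were 2, Tat (0.42 ± 0.09), an aminotransferase gene, and Cps1 (0.26 ± 0.06) of the urea cycle. The share over all genes at that p was 12.1%. At that threshold there was no gene among 5 endothelial, 5 stellate, 4 cholangiocyte, 5 lymphocyte, 3 neutrophil and 4 pancreatic markers, and 1 among 3 adipocyte markers, Fabp4 (0.27 ± 0.11). The medians of these lists were -0.06, -0.00, 0.09, -0.09, -0.10, 0.11 and 0.08.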
